A study of Mus musculus with 6 samples.

Results

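The genes described here encode the enzymes that build pyrimidine ribonucleotides from small precursors and carry them to UTP and CTP, together with the kinases that return salvaged uridine and cytidine to the same pool. They were taken as a list of 10 gene symbols defined by function, and the rule uses no measured value, although the list was drawn up with earlier results of these data known. All 10 were among the 54838 genes of the count table, and all 10 passed the filter on low counts, as did 11092 genes in all. The list held *Cad*, *Dhodh* and *Umps* (the route to UMP), *Ctps* and *Ctps2* (CTP synthases), *Uck1*, *Uck2* and *Uckl1* (uridine-cytidine kinases), and *Cmpk1* and *Nme1* (kinases of nucleoside mono- and diphosphates).

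RNA was measured in I1DN cells, a murine acute myeloid leukaemia on a C57BL/6 background with the genotype IDH1R132H, DNMT3AR882H and NrasG12D. Both groups carried these alleles. The leukaemia came from fetal liver stem and progenitor cells transduced with the 3 mutant constructs, so it is a single engineered model, and it was propagated in sub-lethally irradiated congenic Ptprca recipients. Leukaemic mice received vehicle or AG636, an inhibitor of the DHODH enzyme, by oral gavage at 100 mg/kg b.i.d., with 3 mice in each group (Vehicle and AG636). The sources used here disagree on whether treatment lasted a single day or several days. Cells positive for cKit with absent or low CD11b were sorted from bone marrow and spleen, and their RNA was sequenced from the 3′ ends of transcripts (QuantSeq). The age of the mice was not given in the sources used here.

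In the de novo route CAD, a large cytosolic protein with several activities, joins glutamine, bicarbonate and aspartate into dihydroorotate. DHODH, on the inner mitochondrial membrane, oxidises dihydroorotate to orotate and passes the electrons to ubiquinone, and UMPS converts orotate to UMP. CMPK1 phosphorylates UMP to UDP, nucleoside diphosphate kinases such as NME1 make UTP, and the CTP synthases aminate UTP to CTP. The uridine-cytidine kinases enter downstream of DHODH, since they phosphorylate nucleosides taken up from outside the cell. Rapidly dividing haematopoietic cells draw on both routes for RNA, DNA and the activated sugars and lipids that carry UDP and CDP.

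The 6 libraries held between 4634963 and 7906589 counts, and the members were read from 1052 (*Ctps2*) to 11270 (*Nme1*) counts summed over the libraries. Levels are given as CPM, a library's counts for a gene divided by its total and put on a common scale, after TMM scaling. Because each transcript is counted at its 3′ end, a count does not grow with gene length, and CPM is used below as a level per transcript, subject to differences in how well each 3′ end was captured. On library totals without TMM scaling, a floor of 3 counts corresponds to 0.379 to 0.647 CPM, far under the level of every member. That floor covers counting error only. A gene was called changed at an adjusted p under 0.05. The p-values measure the spread between 3 mice and 3 mice of a single leukaemia.

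Messages for the route to UMP were lower in leukaemia cells from AG636-treated mice, and so were those for *Ctps*, *Uck2* and *Nme1*. By edgeR's quasi-likelihood test 6 of the 10 members fell and none rose, where 11.0% of all genes tested fell and 10.3% rose. Of the 4 members that passed no threshold, *Ctps2* alone was past an unadjusted p of 0.05 in the upward direction, a count of 1, and DESeq2 and limma-voom likewise called 0 members higher. In the 6 members that fell every AG636 sample was below every Vehicle sample, a pattern seen in 20.6% of all genes tested. In 1 member, *Ctps2*, every AG636 sample was above every Vehicle sample, as in 20.5% of all genes. The median log2 fold change of the members was -0.64, beside 0.03 over all genes tested. The count of 6 was 4 without AG636 replicate 3 and 5 without Vehicle replicate 2.

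**Figure D1:**
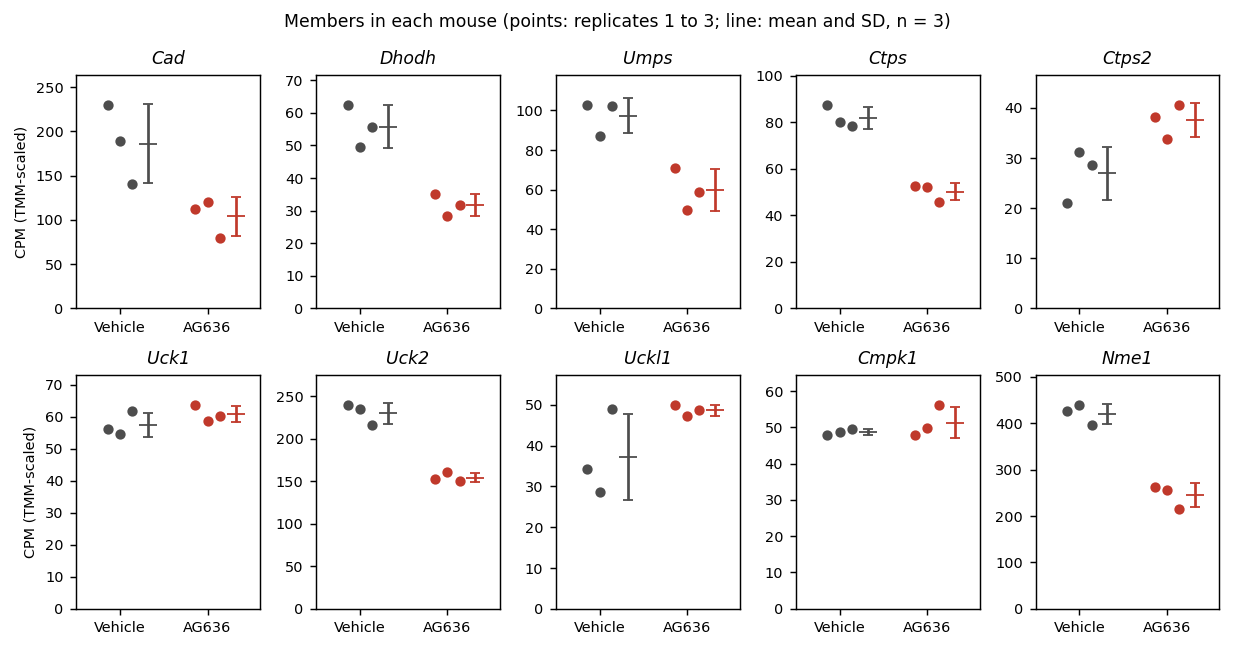
Level of each member in each mouse, in TMM-scaled CPM on a linear axis from 0, with Vehicle on the left and AG636 on the right. Points are the 3 mice of each group and the line is the mean with its SD. The groups are apart in *Cad*, *Dhodh*, *Umps*, *Ctps*, *Uck2* and *Nme1* (AG636 below) and in *Ctps2* (AG636 above), and they overlap in the other 3.

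The 3 genes of the route to UMP fell by similar amounts. *Cad* (ENSMUSG00000013629, chr5:31054780-31078479, plus strand) is the entry enzyme of the route and the step at which its flux is controlled by UTP. It stood at 229.8, 189 and 140.4 CPM in the Vehicle mice and at 112, 121 and 79.1 CPM in the AG636 mice. All 3 AG636 values lay under the lowest Vehicle value, although Vehicle replicate 1 was well above Vehicle replicate 3. The log2 fold change was -0.84 (SE 0.20, edgeR adjusted p = 0.0194), which put the treated mean at 55.9% of the control mean. The call for *Cad* was lost without Vehicle replicate 2 (edgeR adjusted p = 0.0597) and without AG636 replicate 3 (edgeR adjusted p = 0.0664).

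*Dhodh* (ENSMUSG00000031730, chr8:109591343-109608673, minus strand) encodes the enzyme that AG636 inhibits. Its RNA was at 62.4, 49.4 and 55.6 CPM in the Vehicle mice and at 35.04, 28.25 and 31.7 CPM in the AG636 mice. The groups were apart, and the mean went from 55.8 ± 6.48 to 31.7 ± 3.40 CPM (SD, n = 3). The log2 fold change was -0.82 (SE 0.16, edgeR adjusted p = 0.00880). The inhibitor acts on the protein, so this RNA level is no check that the drug reached its target.

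*Umps* (ENSMUSG00000022814, chr16:33954782-33967038, minus strand), whose product makes UMP from orotate, had 102.7, 87.1 and 102.4 CPM in Vehicle. In AG636 it had 70.9, 49.7 and 58.9 CPM. Every treated value was lower than every control value, and the log2 fold change was -0.70 (SE 0.16, edgeR adjusted p = 0.0141). Without AG636 replicate 3 *Umps* was no longer called (edgeR adjusted p = 0.0544). Summed over *Cad*, *Dhodh* and *Umps*, the level was 339.5 ± 49.8 CPM in Vehicle and 196 ± 24.5 CPM in AG636. Of all genes tested, 5.38% had a larger decrease than *Cad*, 5.73% than *Dhodh* and 7.93% than *Umps*.

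Of the CTP synthases *Ctps* fell and *Ctps2* passed no threshold. *Ctps* (ENSMUSG00000028633, chr4:120539868-120570276, minus strand), the form that proliferating lymphocytes depend on, had 87.4, 80.05 and 78.4 CPM in Vehicle. It had 52.5, 52.0 and 45.9 CPM in AG636. The values of each group lay close together and far from the other group, with a log2 fold change of -0.71 (SE 0.13, edgeR adjusted p = 0.00685). *Ctps2* (ENSMUSG00000031360, chrX:162901238-163032508, plus strand), which catalyses the same reaction, had 21.0, 31.1 and 28.6 CPM in Vehicle and 38.2, 33.8 and 40.6 CPM in AG636. The treated values were all above the control values, but Vehicle replicate 2 came within a few CPM of AG636 replicate 2. The log2 fold change of *Ctps2* was 0.48 (SE 0.19), with an edgeR adjusted p of 0.0901, so it passed no threshold.

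The CTP synthases were compared directly as a ratio of the 2 genes within each mouse, which does not depend on library scaling. The log2 ratio of *Ctps2* to *Ctps* was -2.05, -1.36 and -1.45 in Vehicle and -0.46, -0.62 and -0.18 in AG636. It was nearer to equality in every treated mouse than in any control mouse, a difference of 1.21 (SE 0.25) on the log2 scale, with an exact two-sided permutation p of 0.1, the smallest that 3 mice against 3 allow. *Ctps* made up 75.3% ± 4.64 (SD, n = 3) of the summed CPM of the pair in Vehicle and 57.2% ± 3.81 in AG636. The sum itself was 109 ± 2.13 CPM in Vehicle and 87.6 ± 2.66 CPM in AG636.

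Among the kinases that salvage uridine and cytidine, *Uck2* fell and the other 2 passed no threshold. *Uck2* (ENSMUSG00000026558, chr1:167222883-167285320, minus strand) is the form that is abundant in many tumours. It had 239, 234.5 and 216 CPM in Vehicle and 152.5, 161 and 149.7 CPM in AG636. The spread within each group was small against the gap between them, and the log2 fold change was -0.57 (SE 0.11, edgeR adjusted p = 0.00814).

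*Uck1* (ENSMUSG00000002550, chr2:32255002-32260159, minus strand), a more widely expressed kinase of the family, had 56.2, 54.4 and 61.6 CPM in Vehicle and 63.5, 58.8 and 60.03 CPM in AG636. The groups overlapped, with a log2 fold change of 0.08 (SE 0.13, edgeR adjusted p = 0.665). *Uckl1* (ENSMUSG00000089917, chr2:181569149-181584892, minus strand), a related protein, had 34.2, 28.6 and 49.1 CPM in Vehicle and 49.9, 47.2 and 48.9 CPM in AG636. Vehicle replicate 3 lay among the treated values and the other 2 controls below them. The log2 fold change of *Uckl1* was 0.39 (SE 0.20, edgeR adjusted p = 0.179), and without Vehicle replicate 3 it was 0.61 and was called higher (edgeR adjusted p = 0.0344). *Uckl1* shares exon sequence on the same strand with *Zfp512b*, which had 752 counts over the libraries, so its counts are uncertain. On the opposite strand *Uck1* overlaps *Pomt1* by 4 bases. *Uckl1* likewise overlaps *Uckl1os*, *Umps* overlaps *Gm15829* and *Uck2* overlaps *Gm2453*, which had 7, 13 and 2 counts over the libraries. The strand setting of the counting was not given in the sources used here.

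The ratio of *Uck2* to *Uck1* was 2.001 ± 0.17 on the log2 scale in Vehicle and 1.34 ± 0.10 in AG636 (SD, n = 3). The change of -0.66 (SE 0.11) left no overlap between the groups, with an exact two-sided permutation p of 0.1. For *Uck2* over *Uckl1* the log2 ratio went from 2.66 ± 0.47 to 1.66 ± 0.09, again without overlap and with an exact permutation p of 0.1. *Uck2* was still the most abundant of the 3 in every treated mouse, at 58.5% ± 1.54 of their summed CPM against 70.8% ± 4.17 in Vehicle. In all 4 ratios between related genes could be tested, and the adjusted p of each exact permutation test was 0.1.

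**Figure D2:**
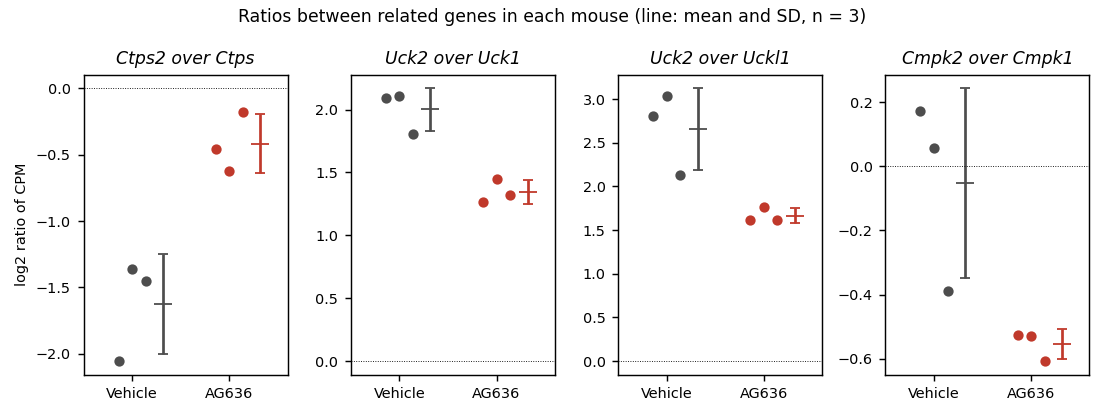
Log2 ratio of the CPM of related genes in each mouse, by group, with the mean and SD of 3 mice as a line and equality as a dotted line at 0. *Ctps2* over *Ctps* is higher in all 3 AG636 mice, while *Uck2* over *Uck1*, *Uck2* over *Uckl1* and *Cmpk2* over *Cmpk1* are lower in all 3.

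Of the kinases that finish the synthesis of UTP, *Nme1* fell and *Cmpk1* passed no threshold, and the difference between them was not tested. *Nme1* (ENSMUSG00000037601, chr11:93956979-93968521, minus strand), a nucleoside diphosphate kinase, was the most abundant member. It had 427, 439 and 397 CPM in Vehicle and 262.5, 256 and 216 CPM in AG636. No treated mouse came near the controls, and the log2 fold change was -0.78 (SE 0.12), the smallest adjusted p among the members (edgeR adjusted p = 0.00407). *Cmpk1* (ENSMUSG00000028719, chr4:114959336-114987241, minus strand), the UMP/CMP kinase of the cytosol, had 47.8, 48.7 and 49.5 CPM in Vehicle and 48.0, 49.7 and 56.1 CPM in AG636. These overlapped, with a log2 fold change of 0.08 (SE 0.13, edgeR adjusted p = 0.714).

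*Nme2*, the neighbouring gene that encodes the partner subunit of NME1, could not be measured. It had 1 count in all the libraries together, and 295 of the last 300 bases of its exons are shared with the readthrough gene *Gm20390*, which had 0 counts. *Nme1* shares 418 of its 3342 exon bases with *Gm20390* but 0 of its last 300, where these libraries place their reads. *Cmpk2*, the mitochondrial UMP/CMP kinase, was at 47.4 ± 8.48 CPM in Vehicle and 34.9 ± 1.77 CPM in AG636, a log2 fold change of -0.45 (SE 0.17) that passed no threshold (edgeR adjusted p = 0.0824). Its log2 ratio to *Cmpk1* changed by -0.50 (SE 0.17), without overlap and with an exact permutation p of 0.1. Of the 4 other nucleotide kinases that could be tested, *Nme6* fell, with a log2 fold change of -0.66 (SE 0.20, edgeR adjusted p = 0.0416). Over all genes tested, 11.0% fell.

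**Figure D3:**
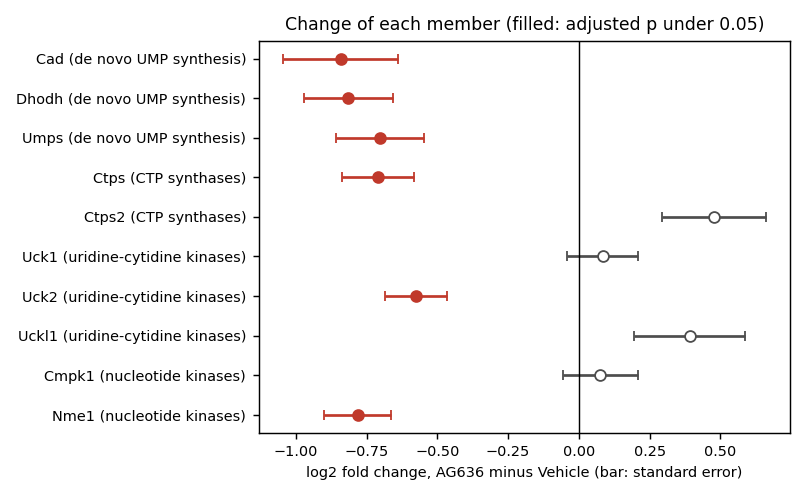
Log2 fold change of each member, AG636 minus Vehicle, with its standard error as a bar and filled points for an adjusted p under 0.05. The 6 filled points lie between -0.84 and -0.57, and the 4 open ones between 0.08 and 0.48.

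In the Vehicle mice the order of the members by mean CPM was *Nme1*, *Uck2*, *Cad*, *Umps*, *Ctps*, *Uck1*, *Dhodh*, *Cmpk1*, *Uckl1* and *Ctps2*. *Nme1* was higher than 96.5% of all genes tested, *Uck2* than 92.5% and *Cad* than 90.2%, while *Dhodh* was higher than 66.3%. The Vehicle values of *Nme1* lay apart from those of *Uck2*, those of *Cad* apart from those of *Umps*, and those of *Ctps* apart from those of *Uck1*. Every other pair of neighbours in that order overlapped in range. In AG636 the values of *Ctps* overlapped those of *Cmpk1*, and the values of *Umps* overlapped those of *Uck1*.

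The promoters of the members were examined for 6 short sequences bound by widely studied factors, since members that fell and members that did not stood side by side within families. RefSeq (GRCm38.p6) gave 15 promoters for 9 of the 10 members. *Dhodh* was not among them. The window of 300 bases ran from 250 before the start of transcription to 50 after it, and both strands were read. Of all 32851 mouse promoters in the same set, 7.15% held CACGTG (the E-box of MYC and MAX), 6.05% held AANATGGC (the core recognised by YY1), 37.4% held CCAAT (the NF-Y box), 8.86% held CCGGAAG (an ETS site), 1.79% held TGACGTCA (the cAMP response element), and 0.895% held TGATGCAA (an ATF4 composite element). The matches below are descriptions of letters and say nothing about binding in these cells.

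Among the members that fell, the matches were the E-box in both *Nme1* promoters, a YY1 core further upstream in the first of them, a cAMP response element at the start of *Umps* and an inverted CCAAT box at the start of *Uck2*. The E-box lay 18 bases before the first *Nme1* start and 29 before the second. Both listed starts lay inside the annotated *Nme1* gene, which begins at base 93968521 on the minus strand. Nearly all of the 250 bases before the first start, with its E-box and YY1 core, lay in exons of *Nme1* itself. Part of the 250 bases before the second start did so too. Most of the 250 bases before the *Uck2* start lay in exons of *Uck2*. The matched letters are in capitals, and the rest in lower case, 5′ to 3′ on the strand of the gene.
Nme1 first promoter, E-box, chr11:93968273-93968302: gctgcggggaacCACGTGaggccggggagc
Nme1 second promoter, E-box, chr11:93968037-93968066: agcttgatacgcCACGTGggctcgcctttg
Nme1 first promoter, YY1 core, chr11:93968467-93968496: gggagaaacagAAGATGGCcgccagacagg
Umps, cAMP response element, chr16:33967017-33967046: ggacttctgggTGACGTCAcgggccccaag
Uck2, inverted NF-Y box, chr1:167285110-167285138: cagcccgcccggATTGGagcagcctcatc

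Among the members that passed no threshold, *Uck1* held an ETS site in a stretch covered by both of its promoters, and *Ctps2* held a CCAAT box 68 bases before its first listed start. That start lay inside the annotated *Ctps2* gene, which begins at base 162901238. The other listed promoters of *Ctps2* lay nearer the beginning of the gene and held none of the 6 motifs. Of the 250 bases before the first and second *Uck1* starts, 54 and 80 lay in exons of *Uck1* itself. None of the 6 motifs was found in the windows of *Cad*, *Ctps*, *Uckl1* and *Cmpk1*.
Uck1, ETS site, chr2:32260082-32260110: cgctcatgtccCCGGAAGcgatgcgcaca

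The 250 bases before the start are shown for *Cad*, the entry enzyme with a single listed promoter, and for the first listed promoter of each CTP synthase. The share of G and C was 58.8% for *Cad*, 67.6% for *Ctps* and 62.4% for *Ctps2*. The second listed promoter of *Ctps* had 53.6%, and the other 2 of *Ctps2* had 59.2% and 64%. The CCAAT box of *Ctps2* is in capitals.
Cad, chr5:31054530-31054779, plus strand: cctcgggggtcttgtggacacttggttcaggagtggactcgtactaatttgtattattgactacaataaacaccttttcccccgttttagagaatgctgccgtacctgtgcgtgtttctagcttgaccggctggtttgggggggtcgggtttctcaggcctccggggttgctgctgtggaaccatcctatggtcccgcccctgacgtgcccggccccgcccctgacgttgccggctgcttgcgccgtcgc
Ctps, chr4:120570277-120570526, minus strand: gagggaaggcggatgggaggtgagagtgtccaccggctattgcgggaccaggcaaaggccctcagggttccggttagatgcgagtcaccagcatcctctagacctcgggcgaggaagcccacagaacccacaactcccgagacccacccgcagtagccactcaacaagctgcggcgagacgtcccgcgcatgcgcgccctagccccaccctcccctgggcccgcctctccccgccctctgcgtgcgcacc
Ctps2, chrX:162901921-162902170, plus strand: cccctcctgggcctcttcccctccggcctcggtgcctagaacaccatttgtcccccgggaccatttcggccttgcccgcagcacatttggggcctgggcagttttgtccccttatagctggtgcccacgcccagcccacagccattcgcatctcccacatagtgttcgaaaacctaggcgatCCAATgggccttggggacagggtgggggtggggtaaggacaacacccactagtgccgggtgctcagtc

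Genes around the pathway were read from lists chosen by function. Counts in these lists stand beside the 11.0% of all genes tested that fell and the 10.3% that rose. Of the genes that supply glutamine, aspartate and phosphoribosyl pyrophosphate, 11 could be tested, 1 fell and 1 rose. *Slc1a5*, a glutamine transporter, fell from 115 ± 6.995 to 64.0 ± 0.841 CPM, a log2 fold change of -0.85 (SE 0.12, edgeR adjusted p = 0.00320). *Glul*, glutamine synthetase, rose with a log2 fold change of 1.49 (SE 0.36, edgeR adjusted p = 0.0182), and its treated values were uneven, at 117, 346 and 131 CPM against 62.9 to 78.3 CPM in Vehicle.

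Of 11 tested genes for transport, salvage and breakdown of pyrimidines, 3 fell and 1 rose. *Slc29a1*, the main equilibrative nucleoside transporter, was at 144.8, 95.6 and 74.2 CPM in Vehicle and at 49.7, 58.6 and 37.4 CPM in AG636. All the treated values lay lower, with a log2 fold change of -1.11 (SE 0.25, edgeR adjusted p = 0.0140). *Slc29a2*, a second transporter of that family, had a log2 fold change of -0.99 (edgeR adjusted p = 0.0233). The nucleotidases went both ways, with a log2 fold change of -0.67 for *Nt5c2* (edgeR adjusted p = 0.0240) and 0.50 for *Nt5c3* (edgeR adjusted p = 0.0291). *Uprt*, a homologue of uracil phosphoribosyltransferase, had 26 counts in all and was not tested.

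De novo purine synthesis shares glutamine, aspartate and phosphoribosyl pyrophosphate with the pyrimidine route. Of its 11 genes, all tested, 6 fell, with a list median of -0.67. *Gart*, which catalyses several steps, had the largest decrease, a log2 fold change of -0.96 (SE 0.13, edgeR adjusted p = 0.00320). *Adsl* (-0.91), *Ppat* (-0.83), *Atic* (-0.80) and *Pfas* (-0.74), other enzymes of that route, followed on the same scale, and the sixth was *Impdh2*. Of the 13 genes for deoxynucleotides 2 fell and 1 rose, with a list median of -0.07. Those that fell were *Dctd*, dCMP deaminase, with a log2 fold change of -0.86 (edgeR adjusted p = 0.0172), and *Dut*, dUTPase, with -0.61 (edgeR adjusted p = 0.0146). *Samhd1*, which degrades deoxynucleotides, rose by 0.45 on the log2 scale (edgeR adjusted p = 0.0225).

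**Figure D4:**
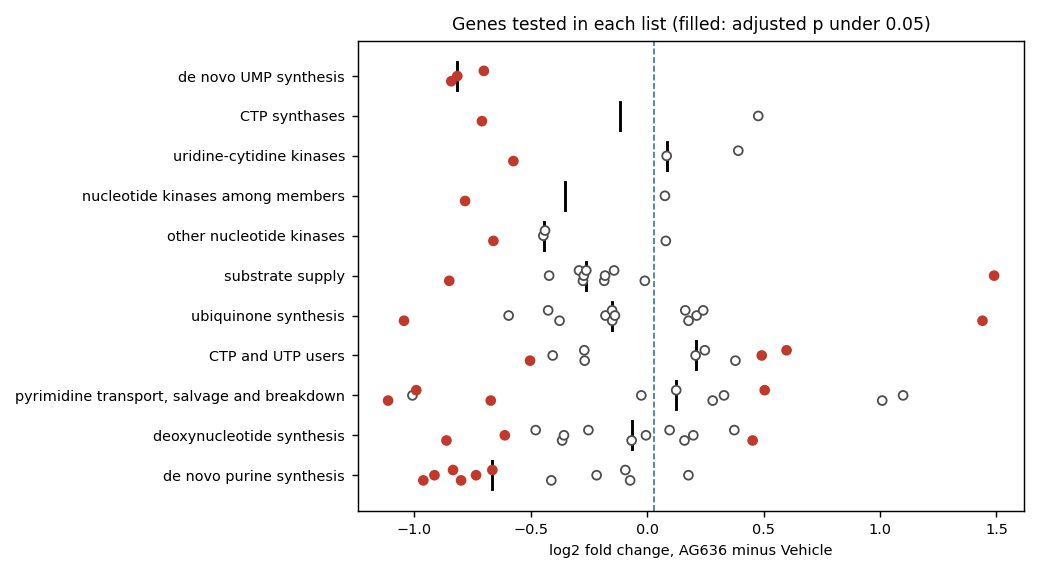
Log2 fold change, AG636 minus Vehicle, of every tested gene in the 11 pathway lists (marker lists are not drawn), with filled points for an adjusted p under 0.05, a black bar for the list median and a dashed line for the median of all genes (0.03). The 3 genes of UMP synthesis and 6 of the 11 genes of purine synthesis are filled on the left.

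Markers of other cells and states moved between the same groups, and their part in the results for the members was not tested. Counts of markers called stand beside the 11.0% of all genes tested that fell and the 10.3% that rose. The summed CPM of 10 mature neutrophil markers ran from 1048 to 2393 in Vehicle and from 2922 to 5939 in AG636, and 7 of them rose. One of these was *Itgam*, which encodes the CD11b used in the sort, with a log2 fold change of 1.21 (edgeR adjusted p = 0.0219). Monocyte and macrophage markers summed to 88.4 to 128.5 CPM in Vehicle and 192 to 257 CPM in AG636, with 3 of 8 tested higher. Erythroid markers overlapped in sum, at 1874 to 5050 and 2006 to 3531 CPM, and 2 of 9 fell. The median log2 fold change of the erythroid list was -0.80, with 8 of 9 genes below 0, beside a median of -0.64 for the members. B cell markers summed to 14.6 to 27.9 and 29.5 to 44.3 CPM and T cell markers to 0.713 to 6.93 and 1.49 to 4.54 CPM. No marker in these lists was at 0 in every library.

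Proliferation markers summed to 4743 to 5081 CPM in Vehicle and 4104 to 4322 CPM in AG636, and 3 of 12 fell (*Mcm3*, *Mcm5* and *Mcm7*, parts of the replicative helicase). Markers of immature leukaemia cells summed to 803 to 1105 and 1125 to 1585 CPM, and of the 6 tested *Meis1* rose, with a log2 fold change of 1.01 (edgeR adjusted p = 0.00795). *Kit*, the sorted surface marker, was at 38.6 ± 6.03 CPM in Vehicle and 42.8 ± 4.80 CPM in AG636, with overlapping groups (edgeR adjusted p = 0.550). *Hoxa9* and *Flt3*, also of that list, were too low to be tested. In sorted bulk samples, fewer cells of a kind and less RNA per cell cannot be told apart.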

How the data were processed

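Counts per gene for 6 libraries, 3 Vehicle and 3 AG636, were analysed as the authors deposited them. Per the submitters' processing notes reads were handled with cutadapt 1.9.1, HISAT2 2.0.4 and Subread 1.5.0-p3 (featureCounts) on mm10, and the paper gives other versions for some of these tools. The strand setting and the annotation release were not given in the sources used here. Coordinates of 54000 of the 54838 genes were identical to GENCODE M21.

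Genes were kept by filterByExpr (minimum count 10, minimum total 15), scaled by TMM and fitted with edgeR 4.0.16 in R 4.3.3 (glmQLFit and glmQLFTest, no replicate block), and p-values were adjusted by Benjamini-Hochberg over 11092 genes. Standard errors of the edgeR fold changes were derived as the absolute log2 fold change divided by the square root of the test's F statistic. The study used limma. DESeq2 1.42.0, limma-voom (limma 3.58.1), other scalings and filters, stricter thresholds and leaving out each library were tried as alternatives. Ratios between related genes were tested by exact two-sided permutation of 3 against 3.

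Every member was named. From the other lists, genes that were called were named, up to the 5 with the largest change, along with *Cmpk2*, *Nme2* and *Uprt*. *Impdh2*, *Kit*, *Hoxa9* and *Flt3* were added after their values were seen. The members and the lists were chosen with earlier results of these data known. Promoter sequences came from RefSeq (GRCm38.p6).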

Additional observations from a re-analysis of the deposited data

How the results depend on the processing

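Of 236 alternative values, 221 kept their result, 11 counts moved, 3 results became weaker, 1 became stronger and none was reversed. A member kept its result if it kept its direction and its side of the threshold. A ratio between related genes was judged on direction alone, with no p-value under the alternatives. A count had to stay within 1.5 times the main count, which takes in the fall from 6 to 4 members called lower. Over 14 alternative fits *Dhodh*, *Ctps*, *Uck2* and *Nme1* were called lower in all 14, *Umps* in 13 and *Cad* in 12. *Ctps2* was called in 0 of 14, with adjusted p between 0.0577 and 0.2895. Members called lower numbered 6 with DESeq2, limma-voom, every other scaling and no filter, 4 at an adjusted p under 0.01, 5 with a fold change of at least 1.5, and 4 to 6 when each library was left out. Members called higher numbered 0 or 1 when each library was left out. Over all genes, 1146 were higher and 1222 lower, leaving out each library gave 399 to 1074 higher and 452 to 1298 lower, and an adjusted p under 0.01 gave 231 higher and 325 lower. Scaling by library size alone gave 1483 higher and 913 lower, with the median of all genes at 0.12 in place of 0.03. The same-numbered samples were different mice, and their deviations from the group means correlated at -0.057, -0.178 and 0.224. Differently numbered samples correlated at -0.38 to 0.364. With so few mice these values cannot decide whether same-numbered samples shared a batch. A fit with the replicate block gave 914 higher, 1046 lower and 6 members lower. For the 4 ratios between related genes that block could not change the value. Those 4 values are counted among the 221. *Nme2* and *Uprt* had too few counts for a test, and the cause was not tested.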

Other observations

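The counts in the lists below were read beside the 11.0% of all genes that fell and the 10.3% that rose. Of 13 genes for the synthesis of ubiquinone, which accepts the electrons of DHODH, 1 fell, 1 rose and 11 passed no threshold. *Pdss2*, a subunit of the enzyme that makes the ubiquinone side chain, had 13.9, 14.4 and 13.8 CPM in Vehicle and 4.04, 10.1 and 6.23 CPM in AG636, a log2 fold change of -1.04 (SE 0.30, edgeR adjusted p = 0.0363). *Coq8a*, an atypical kinase-like protein needed for ubiquinone synthesis, had 2.14, 5.10 and 4.18 CPM in Vehicle and 10.2, 10.5 and 10.8 CPM in AG636, a log2 fold change of 1.44 (SE 0.32, edgeR adjusted p = 0.0140).

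Of 9 tested genes whose products use CTP or UTP to activate lipids and sugars, 1 fell, 2 rose and 6 passed no threshold. *Uap1*, which makes UDP-N-acetylglucosamine, had a log2 fold change of -0.50 (edgeR adjusted p = 0.0290). *Cds2*, which makes CDP-diacylglycerol, had 0.60 (edgeR adjusted p = 0.0203), and *Cmas*, which makes CMP-sialic acid, had 0.49 on the same scale (edgeR adjusted p = 0.0493).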
